A study of Mus musculus with 24 samples.

Results

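The response of IL-4-activated mouse macrophages to rosiglitazone (RSG), a synthetic agonist of the nuclear receptor PPARγ, was measured in cells that kept 1 working copy of Pparg. The comparison rests on 6 of the 24 arrays of the series, chosen by their titles: 3 arrays of PPARg +/-LysCre macrophages given IL-4 and RSG, and 3 of the same genotype given IL-4 and vehicle. Macrophages were differentiated over 10 days from the femur bone marrow of C57Bl/6 mice, and all groups received M-CSF, their growth factor, at 20 ng/ml. Both groups compared also received 20 ng/ml IL-4, and they differed in 1 µM RSG against the DMSO:ethanol vehicle. The number that opens each array title was read as the animal. By this reading mice 1, 2 and 3 each gave 1 culture to either group, so every RSG array has a vehicle array of the same animal. Cultures of 2 further settings serve as reference: the same 3 mice without IL-4, and macrophages of PPARg fl/-LysCre mice 4, 5 and 6 with IL-4, with 6 arrays each. The genotypes are written Pparg+/- and Pparg fl/- below. LysCre is a Cre recombinase placed in the lysozyme locus Lyz2 and active in myeloid cells. The Pparg+/- animals carry it without a floxed allele, and in the Pparg fl/- animals it can delete the one allele that is not already null. The labels do not give the age of the animals.

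PPARγ binds DNA as a heterodimer with RXR at direct repeats of a hexamer, and an agonist turns the pair into an activator of genes of lipid uptake, storage and oxidation. In macrophages its best known targets are the fatty acid-binding protein Fabp4 and the scavenger receptor Cd36. IL-4 acts through its receptor and the transcription factor STAT6, and drives the alternative activation programme marked by Arg1, Chil3, Retnla and Mrc1.

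Total RNA was hybridized to Affymetrix mouse expression arrays. Every value is a ratio: the signal of a probe set, a group of probes for one transcript, divided by its median over the arrays. A ratio of 1 is therefore that probe set's middle array, and levels cannot be set side by side between genes. The median ratio of the 6 arrays lay between 0.966 and 0.998, and no array was a copy of another. Since a gene at background on every array would also read near 1, the label of macrophage could not be checked against the level of its markers. Of 10 macrophage markers measured, 1 was called lower with RSG, the LPS co-receptor Cd14, and none higher, where 0.141% of all genes were called lower. Fewer cells of a type and less RNA per cell cannot be told apart in these bulk cultures.

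One animal stood apart in a marker. Lyz2, the lysozyme gene that hosts the Cre insertion, read 21.6 in the vehicle array and 18.4 in the RSG array of mouse 2, against 0.578 and 0.379 in mouse 1 and 0.347 and 0.296 in mouse 3. It was as high in both arrays of mouse 2 without IL-4 (19.2 and 19.7), and in all 4 arrays of mouse 4 of the Pparg fl/- group (16.6 to 21.3), while mice 5 and 6 read 0.309 to 1.15. The wide step between high and low Lyz2 ratios thus followed the animal, and the arrays of one mouse number went together across its 4 conditions. Among the low animals the ratio also differed with IL-4. In vehicle cultures of mice 1, 3, 5 and 6 it was 1.11, 0.977, 1.02 and 0.929 without IL-4 and 0.578, 0.347, 0.364 and 0.309 with it. Lyz1, a near-identical paralog whose signal may not be told apart from that of Lyz2, was high on the same arrays on 2 of its probe sets. How many copies of the Cre allele each animal carried is not given in the labels. Mouse 2 contributed 1 array to either side of the comparison. The 38 probe sets called higher had a median log2 change of 1.20 with all mice and 1.21 without mouse 2, and the 37 called lower one of -1.23 and -1.18. None of the 75 passed the test without this mouse (adjusted p from 0.089 to 0.58). Their direction could not change, since the RSG and vehicle arrays did not overlap in any of them. The medians are over probe sets chosen with mouse 2 included, so they are no check on its part.

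A probe set was called when its Benjamini-Hochberg adjusted p from limma was under 0.05 and its change at least 1.5-fold. The 3 samples of a group are cultures of separate mice. The spread behind the p-values was pooled over all 8 groups without a term for the mouse, though each animal recurs in 4 groups. The p-values are therefore no measure of the spread between the 3 mice compared, and their 6 arrays alone gave 3 calls. Of 43349 probe sets tested, 75 were called (0.173%), 38 higher with RSG (0.0877%) and 37 lower (0.0854%), while 3162 (7.29%) had an unadjusted p under 0.05. They stood for 30 rising genes, 29 falling genes and 8 probe sets without a single gene symbol. In all 75 the 3 RSG arrays lay wholly above or wholly below the 3 vehicle arrays, which held for 14.4% of all probe sets. That alone sets one direction of change in each of the 3 mice, so the agreement of the mice is no further support. The rises included metabolic genes such as Angptl4, Acaa2, Ech1, Slc27a1 and Lpcat3, but also the kinase Frk and the membrane protein Vsig8. The falls included genes of signalling and the cell surface such as Prkcb, Rasgrp3, Csf1, Il21r and Cd14. Metabolic and transport genes such as Nnmt, Ggt5, Fabp3 and Slc2a6 fell as well. These are picked examples, and a split of functions between rises and falls was not tested. The count depended on which array was left out. It was 67 without the vehicle array of mouse 1, 29 without that of mouse 2 and 45 without that of mouse 3, and 28, 49 and 56 without the RSG arrays of mice 1, 2 and 3. Of the named genes, the -1.37 probe set of Rasgrp3 kept its call in 0 of the 6 fits without an array (adjusted p from 0.051 to 0.19), Uchl1, Nnmt and the -1.80 probe set of Prkcb in 1, and Fabp7, Ggt5, Il21r, Nol3, Pde2a, Slc2a6, Vsig8 and the 0.80 probe set of Acaa2 in 2. With all arrays of 1 mouse left out, 3, 0 and 3 probe sets were called, for mice 1, 2 and 3. With mouse as a block, which sets each RSG array against the vehicle array of its own animal, 112 were called, 71 of the 75 among them, and the falls numbered 64.

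**Figure D1:**
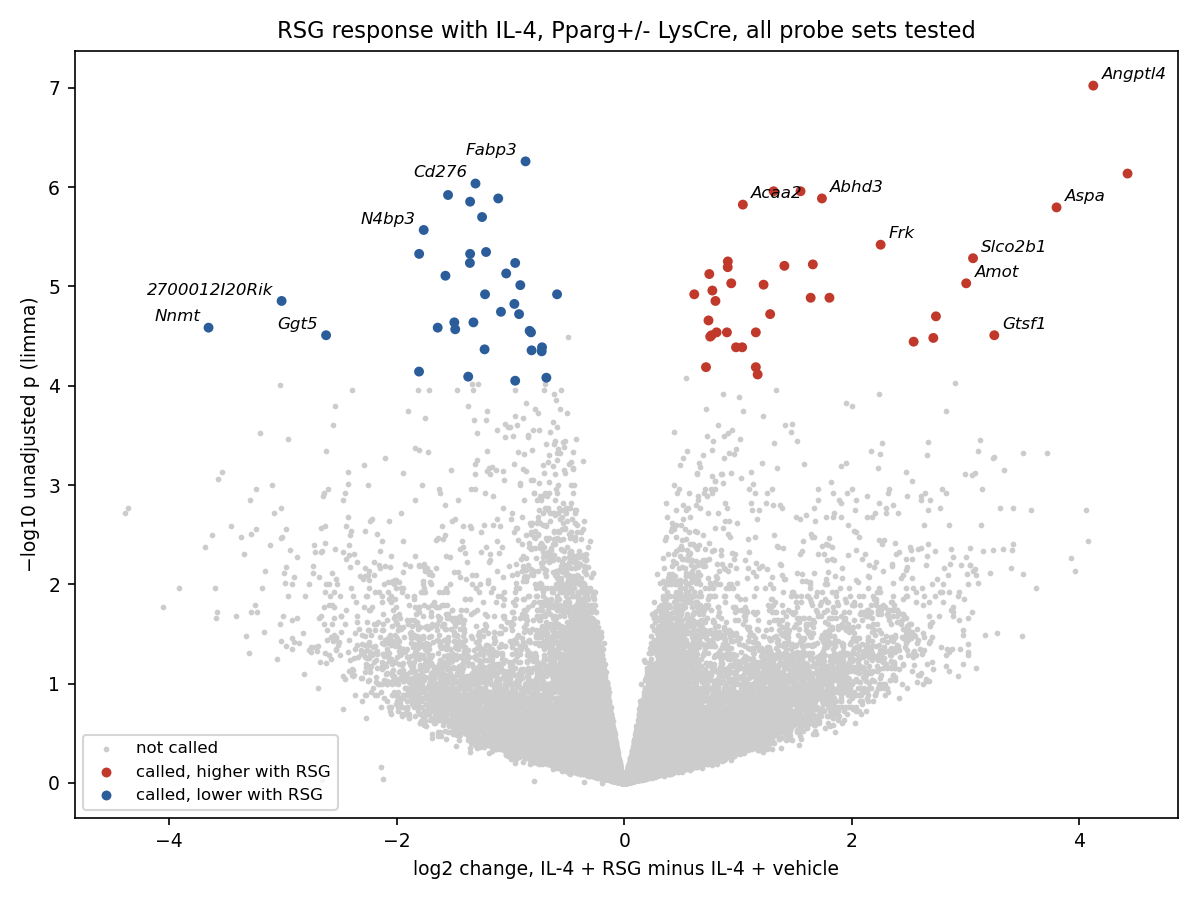
Log2 change with RSG (horizontal axis) against the -log10 of the unadjusted limma p (vertical axis) for the 43349 probe sets tested in Pparg+/- macrophages with IL-4. Red points are the 38 probe sets called higher and blue points the 37 called lower, and Angptl4 has the smallest p of all, at a log2 change of 4.12.

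Angptl4, a secreted inhibitor of lipoprotein lipase and a classical PPAR target, gave the smallest p. Its ratio was 0.702, 0.474 and 0.633 with vehicle and 12.7, 10.1 and 8.65 with RSG, in mice 1, 2 and 3. The lowest RSG array was thus more than 10 times the highest vehicle array. The log2 change was 4.12 ± 0.49 (SE), a 17.4-fold rise (adjusted p = 0.0041). It ranged from 3.96 to 4.25 when any 1 array was left out, with the call kept each time, and the adjusted p was 0.086 to 0.1 with any mouse left out. A second Angptl4 probe set read 1.23, 0.468 and 0.697 with vehicle and 3.68, 4.71 and 2.15 with RSG, higher in all 3 mice, but was not called (2.18 ± 0.91 (SE), adjusted p = 0.59).

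Most fatty acid oxidation genes had a positive change of small size. Acaa2, the thiolase that performs the last step of mitochondrial β-oxidation, was called on all 3 of its probe sets, with log2 changes of 0.80, 0.91 and 1.04. On the last of these it read 1.04, 0.827 and 0.889 with vehicle and 2.21, 1.74 and 1.73 with RSG (adjusted p = 0.0058). Ech1, the dienoyl-CoA isomerase that prepares unsaturated fatty acids for oxidation, rose from 1.16, 1.04 and 0.972 to 1.77, 1.54 and 1.55 (0.61 ± 0.10 (SE), adjusted p = 0.015). Cpt1a, the gate of fatty acid entry into mitochondria, read 0.816, 0.705 and 0.729 with vehicle and 1.60, 1.31 and 1.22 with RSG, with no overlap, and fell just short of a call (0.87 ± 0.18 (SE), adjusted p = 0.056). Its other 2 probe sets gave log2 changes of 1.01 and 1.13 (adjusted p = 0.1 and 0.17). Of 29 oxidation genes measured by 1 probe set each, 2 were called higher and none lower, against 0.276% of all 17737 genes. Of all genes 44.5% had a change above 0 and 55.5% one below, and 8.5% had an unadjusted p under 0.05. Their median log2 change was 0.24 against -0.03 over all genes, 25 of the 29 were above 0, and 13 had an unadjusted p under 0.05, each of them higher. The list median was 0.16 without IL-4 and 0.10 in Pparg fl/- cells.

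Of 30 PPAR target genes measured, 3 were called higher (Angptl4, Acaa2 and Ech1) and 1 lower, against 0.276% of all genes called. Acaa2 and Ech1 are also the 2 calls of the oxidation list. The median log2 change was 0.29, and 20 were above 0, against 44.5% of all genes. The list median was also 0.29 without IL-4, and it was 0.23 in Pparg fl/- cells. An unadjusted p under 0.05 was seen in 13 (43.3%), 11 higher and 2 lower, against 8.5% of all genes. The called fall was in Fabp3, the heart-type fatty acid-binding protein, from 0.877, 0.842 and 0.912 with vehicle to 0.520, 0.485 and 0.439 with RSG (-0.87 ± 0.12 (SE), adjusted p = 0.0058). Its relative Fabp7, the brain-type protein, moved the other way, from 0.839, 0.752 and 0.940 to 3.10, 1.95 and 2.96 (1.64 ± 0.28 (SE), adjusted p = 0.015). Fabp4 itself read 0.665, 0.549 and 0.426 with vehicle and 1.24, 0.998 and 0.936 with RSG. The arrays did not overlap, yet the log2 change of 0.96 ± 0.23 (SE) was not called (adjusted p = 0.12). Its other 3 probe sets gave 0.88, 0.90 and 1.48, with adjusted p from 0.088 to 0.21, and the last of them was called with mouse as a block (adjusted p = 0.044). Without the mean-variance trend of the test, the first Fabp4 probe set was called (adjusted p = 0.043).

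Other well-known lipid genes gave no call. Cd36 read 1.53, 1.40 and 1.28 with vehicle and 1.39, 1.41 and 1.46 with RSG on the probe set that varied least (0.02 ± 0.10 (SE)), and another Cd36 probe set gave 0.34 (adjusted p = 0.34). Pdk4, a brake on glucose oxidation, spread from 0.802, 0.793 and 0.331 with vehicle to 0.169, 0.773 and 1.20 with RSG, so that its arrays overlapped widely (-0.14 ± 0.81 (SE)). Scd1, the stearoyl-CoA desaturase, had a log2 change of 0.63 ± 0.34 (SE) and the lipid droplet coat protein Plin2 one of 0.34 ± 0.13 (SE), with adjusted p of 0.76 and 0.53. None of 29 lipid droplet and triglyceride genes was called (median 0.03, 4 with an unadjusted p under 0.05), and none of 16 genes of fatty acid synthesis (median -0.07, 1 under 0.05). Among 15 genes of cholesterol efflux and LXR signalling, Lpcat3 was called, an enzyme that puts polyunsaturated fatty acids into phospholipids. It read 0.990, 0.887 and 1.01 with vehicle and 1.64, 1.52 and 1.68 with RSG (0.75 ± 0.12 (SE), adjusted p = 0.012). No cholesterol biosynthesis gene was called, although 17 of 19 had a log2 change above 0, against 44.5% of all genes (median 0.19, 1 with an unadjusted p under 0.05). That median was 0.32 without IL-4 and 0.15 in Pparg fl/- cells. Slc27a1, a fatty acid transporter, and Pex11a, which drives the division of peroxisomes, were called on 1 of their probe sets each, at 0.77 and 1.04.

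The start-site windows of the called genes were searched for the hexamer that PPARγ and RXR recognise, AGGTCA on either strand, in the 250 bases before and 50 bases after each RefSeq gene start of GRCm38.p6. A window was at hand for 25 of the 30 rising and 23 of the 29 falling genes. The hexamer was in a window of 5 of the 25 rising genes (Septin9, Glul, Frk, Fabp7 and Amot) and 3 of the 23 falling genes (Rasgrp3, Nrp1 and Il21r). It was in 18.1% of all 27018 genes with a window, and neither count was far from that share. A direct repeat of AGGNCA with 1 base between its copies, which can overlap the hexamer, was in no window of either group and in 0.452% of all genes. The palindromes that STAT proteins recognise were also searched on both strands. TTC and GAA spaced by 4 bases were found in 1 rising and 1 falling gene, against 8.01% of all genes, and spaced by 3 bases in 3 rising and 1 falling gene, against 9.55%. The windows of 2 rising genes are shown because they carry the hexamer at different places, in capitals, at position -171 from the start of Fabp7 and at position 14 of Frk. In both the letters read TGACCT, the hexamer on the opposite strand.
Fabp7, chr10:57784673-57784972 (+ strand): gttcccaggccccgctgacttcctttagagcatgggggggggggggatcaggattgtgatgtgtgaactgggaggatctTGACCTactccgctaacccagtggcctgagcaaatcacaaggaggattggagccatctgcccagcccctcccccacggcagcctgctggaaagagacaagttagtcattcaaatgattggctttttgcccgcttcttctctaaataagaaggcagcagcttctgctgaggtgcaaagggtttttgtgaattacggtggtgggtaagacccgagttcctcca
Frk, chr10:34483150-34483449 (+ strand): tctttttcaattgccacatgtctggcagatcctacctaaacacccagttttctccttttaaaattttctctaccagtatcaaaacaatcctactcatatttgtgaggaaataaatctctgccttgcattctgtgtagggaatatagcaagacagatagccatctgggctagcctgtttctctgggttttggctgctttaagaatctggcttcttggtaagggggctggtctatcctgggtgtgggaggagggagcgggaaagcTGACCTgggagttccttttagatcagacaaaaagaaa
The letters describe these windows alone, and no window was at hand for Angptl4 and Acaa2.

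Beyond lipid metabolism, the largest rises were in genes of varied function. Aspa, which splits N-acetylaspartate into acetate and aspartate, rose from 0.717, 0.446 and 0.341 to 6.83, 7.21 and 5.97 (3.80 ± 0.55 (SE), 13.9-fold, adjusted p = 0.0059). Slco2b1, an organic anion transporter, rose from 0.497, 0.301 and 0.293 to 3.81, 2.35 and 2.88 on the called probe set (3.06 ± 0.48 (SE), adjusted p = 0.011). Its 2 other probe sets gave 2.25 and 0.53 and were not called. Gtsf1, a factor of transposon silencing in germ cells, was low and uneven with vehicle, at 0.161, 0.313 and 0.0244, and read 0.730, 1.45 and 1.01 with RSG on 1 of its 2 probe sets (3.25 ± 0.59 (SE), adjusted p = 0.023). Its rise was 2.18 and 2.21 on the log2 scale in mice 1 and 2 and 5.37 in mouse 3, and the call was lost without the RSG array of any mouse, at adjusted p up to 0.14. Amot, a junction scaffold that binds YAP, read 0.119, 0.0428 and 0.0617 with vehicle and 0.591, 0.552 and 0.497 with RSG on 1 of its 3 probe sets (3.00 ± 0.50 (SE), adjusted p = 0.013). Both Gtsf1 and Amot with vehicle were thus far below the middle array of their own probe sets.

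Vsig8, a membrane protein of the immunoglobulin superfamily, rose in every mouse from an uneven base, from 5.14, 1.32 and 1.81 to 23.7, 10.8 and 14.4 (2.74 ± 0.48 (SE), adjusted p = 0.019). The tyrosine kinase Frk was called on 1 of its 4 probe sets. There it rose from 0.687, 0.818 and 0.543 to 3.19, 3.45 and 3.00 (2.25 ± 0.35 (SE), adjusted p = 0.011), and its RSG arrays were close together. Smaller rises were called for the cyclic nucleotide phosphodiesterase Pde2a (1.80, on 1 of its 3 probe sets), the phospholipid hydrolase Abhd3 (1.74) and the translational repressor Samd4 (1.66). Others were the ubiquitin ligase subunit Asb4 (1.41), the glycan-releasing enzyme Engase (1.31) and the transcript G730013B05Rik (1.55). Samd4 was called on 2 of its 4 probe sets, of which 1 was no longer called with mouse as a block (adjusted p = 0.071). G730013B05Rik was the most even of them, with 0.608, 0.555 and 0.597 and 1.72, 1.68 and 1.75. The other called rises, named after their values were seen, were Gstt2, Meis1, Sirpb1a, Kitl, Sort1, Glul, 4931406C07Rik, Slc37a2, Suclg2 and Septin9, with log2 changes from 0.72 to 1.22. Sirpb1a belongs to a family of near-identical receptors whose probes may not be specific.

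**Figure D2:**
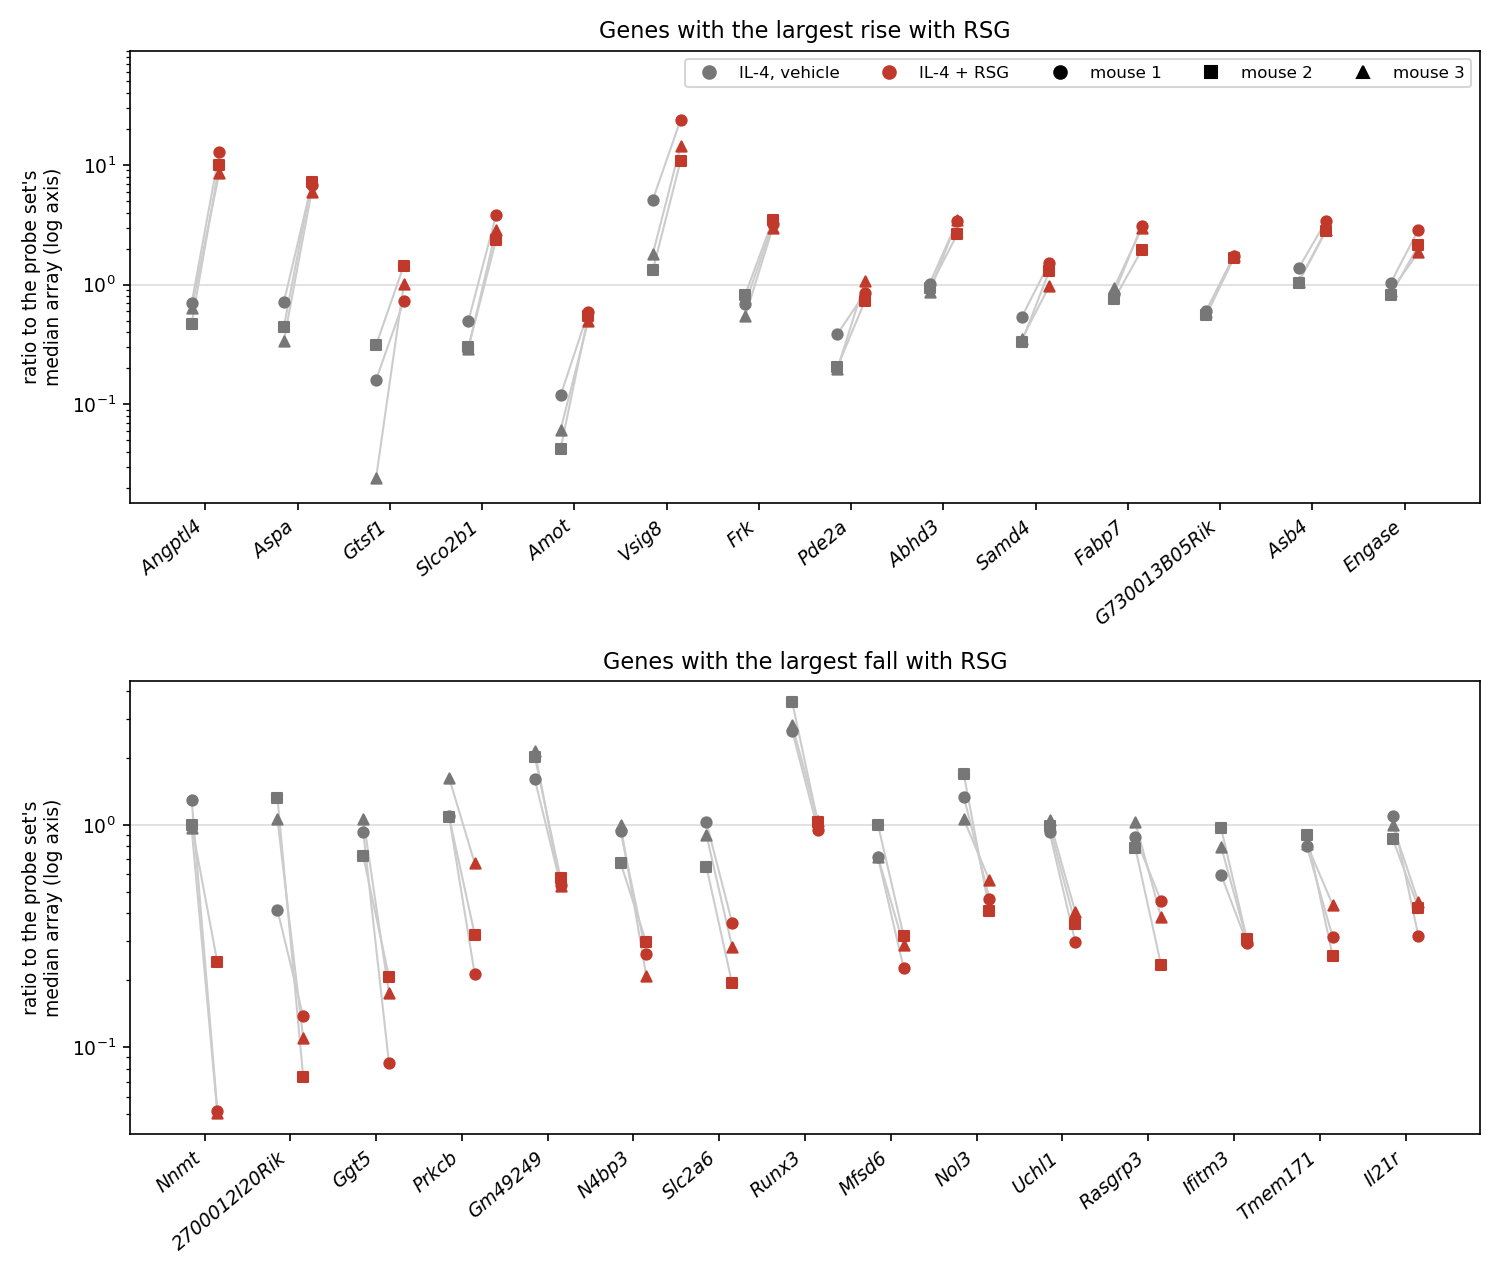
Ratio to the probe set's median array (log axis) for 14 of the genes that rose most with RSG and the 15 that fell most. Grey points are the vehicle arrays and red points the RSG arrays of Pparg+/- macrophages with IL-4, shapes mark the mice and lines join arrays of one animal; the 2 colours do not overlap in any gene, and Gtsf1 with vehicle and Nnmt with RSG have the widest spread within a group.

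Among the falls, Nnmt had the largest change. This methyltransferase of nicotinamide read 1.30, 1.000 and 0.964 with vehicle and 0.0515, 0.241 and 0.0506 with RSG, a 12.6-fold drop (-3.65 ± 0.66 (SE), adjusted p = 0.023). Mouse 2 was the least reduced, with a log2 change of -2.05 against -4.66 and -4.25 in mice 1 and 3. The call was kept in only 1 of the 6 fits that left out an array, at log2 changes from -4.40 to -3.27. Ggt5, a γ-glutamyl transferase that acts on leukotriene C4, fell from 0.932, 0.724 and 1.07 to 0.0850, 0.207 and 0.175 on 1 of its 3 probe sets (-2.62 ± 0.48 (SE), adjusted p = 0.023). The transcript 2700012I20Rik fell from 0.414, 1.33 and 1.06 to 0.138, 0.0737 and 0.110 (-3.01 ± 0.51 (SE), adjusted p = 0.015).

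Prkcb and Rasgrp3, which encode signalling proteins that respond to diacylglycerol, fell on more than 1 probe set each. Prkcb, protein kinase C β, was called on 2 of 3 probe sets, at -1.80 and -1.11. The more even one read 1.25, 1.04 and 0.996 with vehicle and 0.582, 0.452 and 0.494 with RSG (adjusted p = 0.0058). The remaining probe set gave -1.21 (adjusted p = 0.082, and 0.038 with mouse as a block). Rasgrp3, an exchange factor for Ras, was called on both of its probe sets, at -1.37 and -1.22; with mouse as a block the first was no longer called (adjusted p = 0.071). The membrane protein Mfsd6 was called on all 3, from -1.25 to -1.55.

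Il21r, Cd14 and Csf1 encode surface receptors and a secreted factor of immune cells, and all were called lower. The interleukin-21 receptor Il21r fell from 1.10, 0.866 and 0.998 to 0.317, 0.423 and 0.450 (-1.33 ± 0.24 (SE), adjusted p = 0.021). Cd14 fell from 0.869, 0.653 and 0.717 to 0.362, 0.280 and 0.320 (-1.22 ± 0.19 (SE), adjusted p = 0.011). Csf1, which encodes the M-CSF that was also supplied in the medium, fell from 0.858, 1.00 and 0.891 to 0.400, 0.358 and 0.416 (-1.23 ± 0.23 (SE), adjusted p = 0.028). All 3 RSG arrays of each gene lay below the lowest vehicle array. The transcription factor Runx3 fell from 2.64, 3.58 and 2.83 to 0.952, 1.02 and 1.04 (-1.57 ± 0.26 (SE), adjusted p = 0.012), and the hexose transporter Slc2a6 from 1.03, 0.649 and 0.903 to 0.363, 0.194 and 0.283 (-1.64 ± 0.29 (SE), adjusted p = 0.023). Falls were further called for N4bp3 (-1.76), Gm49249 (-1.80), the apoptosis repressor Nol3 (-1.49), the deubiquitinase Uchl1 (-1.49), the virus restriction factor Ifitm3 (-1.36) and Tmem171 (-1.35). The remaining called falls, named after their values were seen as was Csf1, were Cd276, Mmp8, Clstn1, Pilrb1, Chst11, Nes, Stap1, Adam15, Pdgfa, Rhoj and Nrp1, with log2 changes from -1.31 to -0.59.

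The receptor's own transcript was lower with its ligand in every mouse. Pparg read 2.02, 1.71 and 1.46 with vehicle and 1.09, 0.909 and 0.895 with RSG, without overlap. The log2 change of -0.83 ± 0.26 (SE) was not called (adjusted p = 0.32), and with mouse as a block it was (adjusted p = 0.043). The same probe set read 0.579, 0.510 and 0.558 in the vehicle cultures of these mice without IL-4, below all 6 arrays with it. In the Pparg fl/- cells with IL-4 it read 1.86, 2.91 and 3.16 with vehicle and 1.93, 2.41 and 2.81 with RSG, no lower than in Pparg+/- cells. Whether this probe set lies inside or outside the floxed exons is not given in the sources used here, so its ratio checks nothing about the deletion. Of 19 nuclear receptors, cofactors and IL-4 signalling genes, none was called (median -0.03, 3 with an unadjusted p under 0.05). Stat6 had a log2 change of 0.04 ± 0.21 (SE), and Nr1h3, the oxysterol receptor LXRα, one of 0.88 (adjusted p = 0.12).

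Marker genes of alternative activation did not pass the test, and a list of this size holds few calls at the share of 0.276% over all genes. Arg1 read 3.13, 2.91 and 2.48 with vehicle and 2.65, 2.64 and 2.72 with RSG, Retnla 3.12, 2.90 and 2.45 and 2.61, 2.54 and 2.52, and Mrc1 1.12, 1.16 and 1.13 and 1.16, 1.16 and 1.23. Their log2 changes were -0.08, -0.14 and 0.06, and that of Chil3 was -0.08. Ccl17, a chemokine, spread from 0.289, 1.57 and 1.09 with vehicle to 0.172, 1.06 and 2.07 with RSG, and its change could not be resolved (-0.13 ± 0.97 (SE)). Of 36 alternative activation genes none was called by limma, 7 (19.4%) had an unadjusted p under 0.05, 4 higher and 3 lower, against 8.5% of all genes, and the median log2 change was -0.13. None of 18 genes of retinoid metabolism and CD1d was called either (median 0.09, 3 under 0.05).

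Most inflammatory genes had a negative change, and none was called. Of 26 measured, 19 (73.1%) had a log2 change below 0, against 55.5% of all genes, with a median of -0.33 against -0.03. An unadjusted p under 0.05 was seen in 4 of them (15.4%), 3 lower, against 8.5% of all genes. The list median was -0.41 without IL-4 and -0.15 in Pparg fl/- cells. Ccl3, a chemokine for monocytes, read 0.367, 0.353 and 0.328 with vehicle and 0.151, 0.136 and 0.142 with RSG (-1.29 ± 0.26 (SE), adjusted p = 0.052), and was called with mouse as a block. Mmp9, a gelatinase, read 5.17, 5.36 and 7.40 with vehicle and 1.19, 1.07 and 1.86 with RSG, a log2 change of -2.14 in which the groups did not come near each other. The test with the mean-variance trend widened its standard error to 5.29, from 0.27 without the trend, and Mmp9 was called without the trend (adjusted p = 0.0033). The standard error was more than 2 times as wide with the trend for 30 of the 43349 probe sets, and 5 of these were called without it. Dcstamp, a protein of macrophage fusion, read 5.12, 2.87 and 3.98 with vehicle and 1.08, 0.956 and 1.08 with RSG (-1.91 ± 0.41 (SE), adjusted p = 0.072), and was called with mouse as a block. It was the one call among 13 fusion and osteoclast genes under that block, while the main test called none (median -0.01, 2 with an unadjusted p under 0.05).

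Glucose handling showed 1 call, the fall of Slc2a6, among 19 glycolysis and uptake genes. Of these 17 were below 0, against 55.5% of all genes, at a median of -0.14. The share called lower over all genes was 0.141%. None of 24 interferon-stimulated genes (median -0.04), 12 MHC class II genes (-0.14) or 24 cell cycle genes (0.14) was called, with 0, 0 and 3 at an unadjusted p under 0.05. Of 21 scavenger and pattern recognition receptors, Cd14 alone was called (median -0.12). Markers of other cells were not called in any of 9 lists. The summed ratio of 9 neutrophil markers was 2.44 to 4.66 with vehicle and 1.67 to 3.18 with RSG, and that of 8 dendritic cell markers 10.2 to 13.1 and 8.74 to 10.6. For 5 eosinophil markers it was 4.20 to 6.63 and 2.08 to 4.24, for 10 mast cell and basophil markers 9.63 to 13.1 and 9.42 to 18.3, and for 10 stromal markers 4.97 to 8.54 and 3.96 to 6.18. The ranges of the 2 groups overlapped in these lists and in those of 7 B cell, 7 T and NK cell and 2 adipocyte markers, while 2 erythroid markers summed to 1.26 to 2.10 with vehicle and 3.16 to 4.09 with RSG. The part of such cells in the results was not tested.

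**Figure D3:**
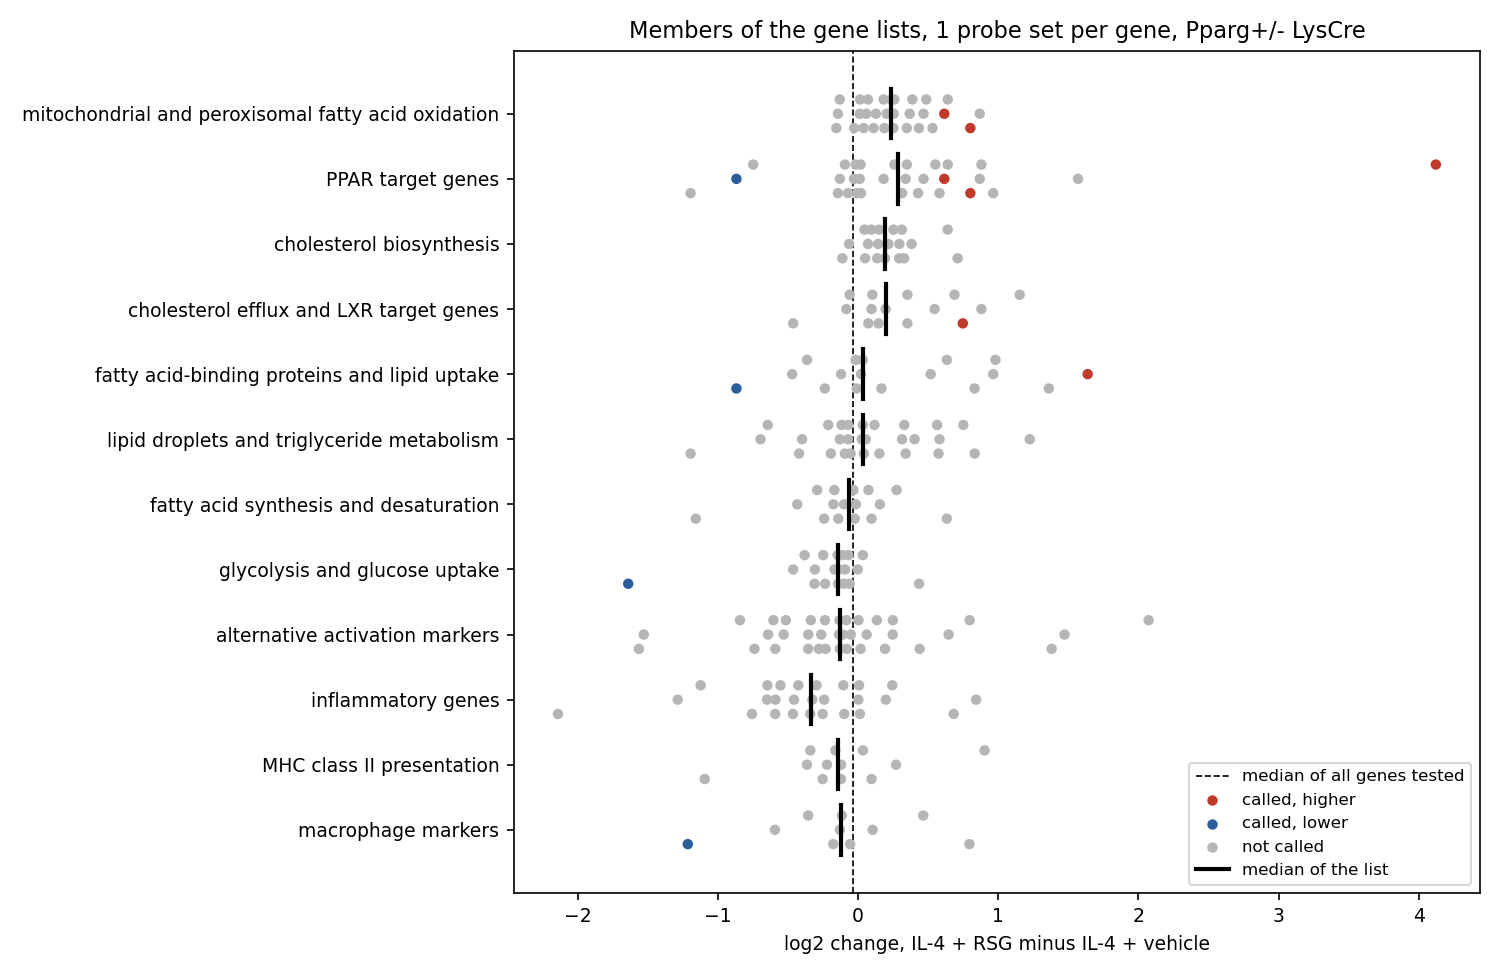
Log2 change with RSG of the members of 12 gene lists in Pparg+/- macrophages with IL-4, 1 probe set per gene. Red and blue points are called members, grey points those not called, thick bars the list medians and the dashed line the median of all genes at -0.03; the fatty acid oxidation and cholesterol biosynthesis lists lie mostly to the right of it and the inflammatory list mostly to the left.

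The same mice without IL-4 gave fewer calls, 5 of 43349 probe sets (0.0115%). They were Ear3, Lpcat3, Gp5 and 2 probe sets without a single symbol. The 2 comparisons share animals but no array. Of the 38 probe sets called higher with IL-4, 35 were also above 0 without it, with a median log2 change of 0.55, where 50.7% of all probe sets were above 0. A change of at least 1.5-fold in that direction was seen in 18 of the 38, against 10.7% of all probe sets. Of the 37 called lower, 31 were also below 0 (median -0.32), where 49.3% of all probe sets were. A fall of at least 1.5-fold was seen in 6 of them, a share near the 12.7% of all probe sets. The members were chosen by their change with IL-4, so a smaller change in another setting is fixed in part by that choice.

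Angptl4 read 0.884, 0.691 and 0.696 with vehicle and 4.03, 3.21 and 3.49 with RSG in the cultures without IL-4, without overlap but short of a call, at a log2 change of 2.24 ± 0.49 (adjusted p = 0.26), against 4.12 with it. Aspa (2.48) and Frk (2.00) also had log2 changes of 2 or more without IL-4, with adjusted p of 0.27 and 0.089, and with mouse as a block Aspa was called (adjusted p = 0.017). Lpcat3 was called in both states, from 0.682, 0.609 and 0.746 to 1.24, 1.15 and 1.23 without IL-4 (0.83, adjusted p = 0.025). Gtsf1 (-0.33), Engase (-0.23), Nnmt (0.68) and Ggt5 (0.22) had the opposite sign there, none of them past the test. Ear3, an eosinophil-associated ribonuclease of a family of near-identical copies, read 0.0188, 0.0312 and 0.0307 without IL-4 and vehicle and 0.507, 0.531 and 0.465 with RSG alone (4.25, adjusted p = 0.045, and 0.088 with mouse as a block). With IL-4 it was high in both groups, at 5.64, 2.85 and 2.46 and 10.2, 7.74 and 7.15 (1.28, adjusted p = 0.74).

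When the RSG responses with and without IL-4 were compared directly, 1 probe set differed (0.00231%), that of Gp5, the platelet glycoprotein V, which was not among the 75. For the probe sets called with IL-4 the smallest adjusted p of this difference was 0.28, so none was shown to respond differently in the 2 states. For Angptl4 the difference was 1.88 ± 0.69 (SE), for Nnmt -4.33 ± 0.93 and for Engase 1.54 ± 0.26, with adjusted p of 1, 0.62 and 0.28.

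**Figure D4:**
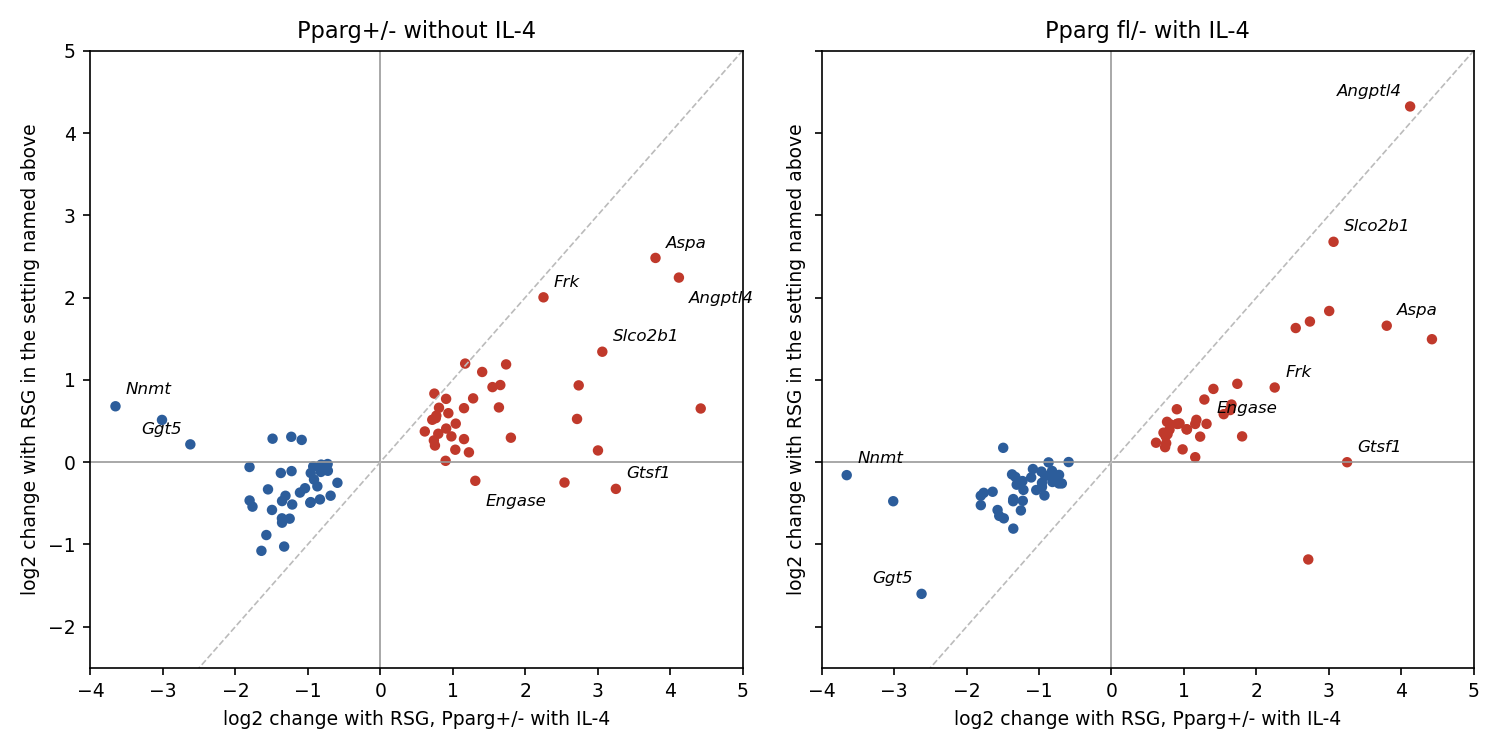
Log2 change with RSG of the 75 called probe sets in Pparg+/- macrophages with IL-4 (horizontal axis) against that in Pparg+/- macrophages without IL-4 (left, vertical axis) and in Pparg fl/- macrophages with IL-4 (right). Red points were called higher and blue points lower, and the dashed line marks equal change. The points called higher have a median of 1.20 on the horizontal axis, by which they were chosen, and of 0.55 and 0.47 on the vertical axes. Angptl4 lies close to the line on the right.

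In Pparg fl/- macrophages with IL-4, 4 probe sets were called (0.00923%). Angptl4 and a second Slco2b1 probe set were higher with RSG (0.00461%), and Dach1 (-1.97) and 1 without a symbol were lower (0.00461%). With mouse as a block the calls of Dach1 (adjusted p = 0.078) and Slco2b1 (0.052) were lost. These cells share no array and no animal with the Pparg+/- cells. Of the 38 probe sets called higher in Pparg+/- cells, 36 were also above 0 here, with a median log2 change of 0.47, where 50.5% of all probe sets were. Of the 37 called lower, 35 were below 0, with a median of -0.27, where 49.5% of all probe sets were below 0. A change of at least 1.5-fold in the same direction was seen in 14 of 38 and 5 of 37, against 12.2% and 12% of all probe sets. By that cut alone, and not by their sign, the falls were near the background. The 75 were chosen by their change in Pparg+/- cells, so a smaller change here is also fixed in part by that choice.

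Angptl4 responded in both genotypes. In Pparg fl/- cells of mice 4, 5 and 6 it read 0.0684, 0.412 and 0.210 with vehicle and 6.47, 2.23 and 3.29 with RSG. The log2 change was 4.32 ± 0.49 (adjusted p = 0.0015). The rise was uneven, largest in mouse 4, whose vehicle array was the lowest, and smallest in mouse 5. The levels with RSG lay below those of Pparg+/- cells, as did those with vehicle, and the difference between the 2 responses was 0.20, with a 95% interval from -1.25 to 1.65. The Slco2b1 probe sets disagreed. The one called in Pparg+/- cells gave 2.68 (adjusted p = 0.15, and 0.0058 with mouse as a block), and the one called here rose from 0.158, 0.187 and 0.271 to 0.559, 0.724 and 0.931 (1.85, adjusted p = 0.033). The remaining one was lower, at 5.27, 3.47 and 5.00 with vehicle and 0.958, 0.898 and 0.433 with RSG (-2.65 ± 0.53, adjusted p = 0.27), and its genotype difference was -4.89 ± 0.75 (SE, adjusted p = 0.16). Aspa (1.66), Amot (1.84), Vsig8 (1.71) and Fabp4 (0.81) were higher on average without a call. Gtsf1, Fabp3 and Nrp1 had log2 changes within 0.01 of 0, and Nnmt had one of -0.16. A direct test of the difference between the genotypes called no probe set, with 2034 (4.69%) at an unadjusted p under 0.05, and the smallest adjusted p over the 75 was 0.28. The response of these genes was therefore not shown to depend on the genotype, and for Fabp3 the difference was 0.86 ± 0.16 (SE, adjusted p = 0.3), for Nnmt 3.50 ± 0.93 and for Gtsf1 -3.25 ± 0.84 (adjusted p = 0.81 and 0.78). Without mouse 4, whose Lyz2 ratios were high, the direct test called 2 probe sets. It called 1 without mouse 3 and 0 without any other mouse. Abhd3 in Pparg fl/- cells read 0.603, 0.889 and 0.758 with vehicle and 2.12, 1.41 and 0.985 with RSG, in mice 4, 5 and 6. Its rise was thus largest in mouse 4, as was that of Frk, while that of Aspa was largest in mouse 6. The part of mouse 4 in the responses was not tested.

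**Figure D5:**
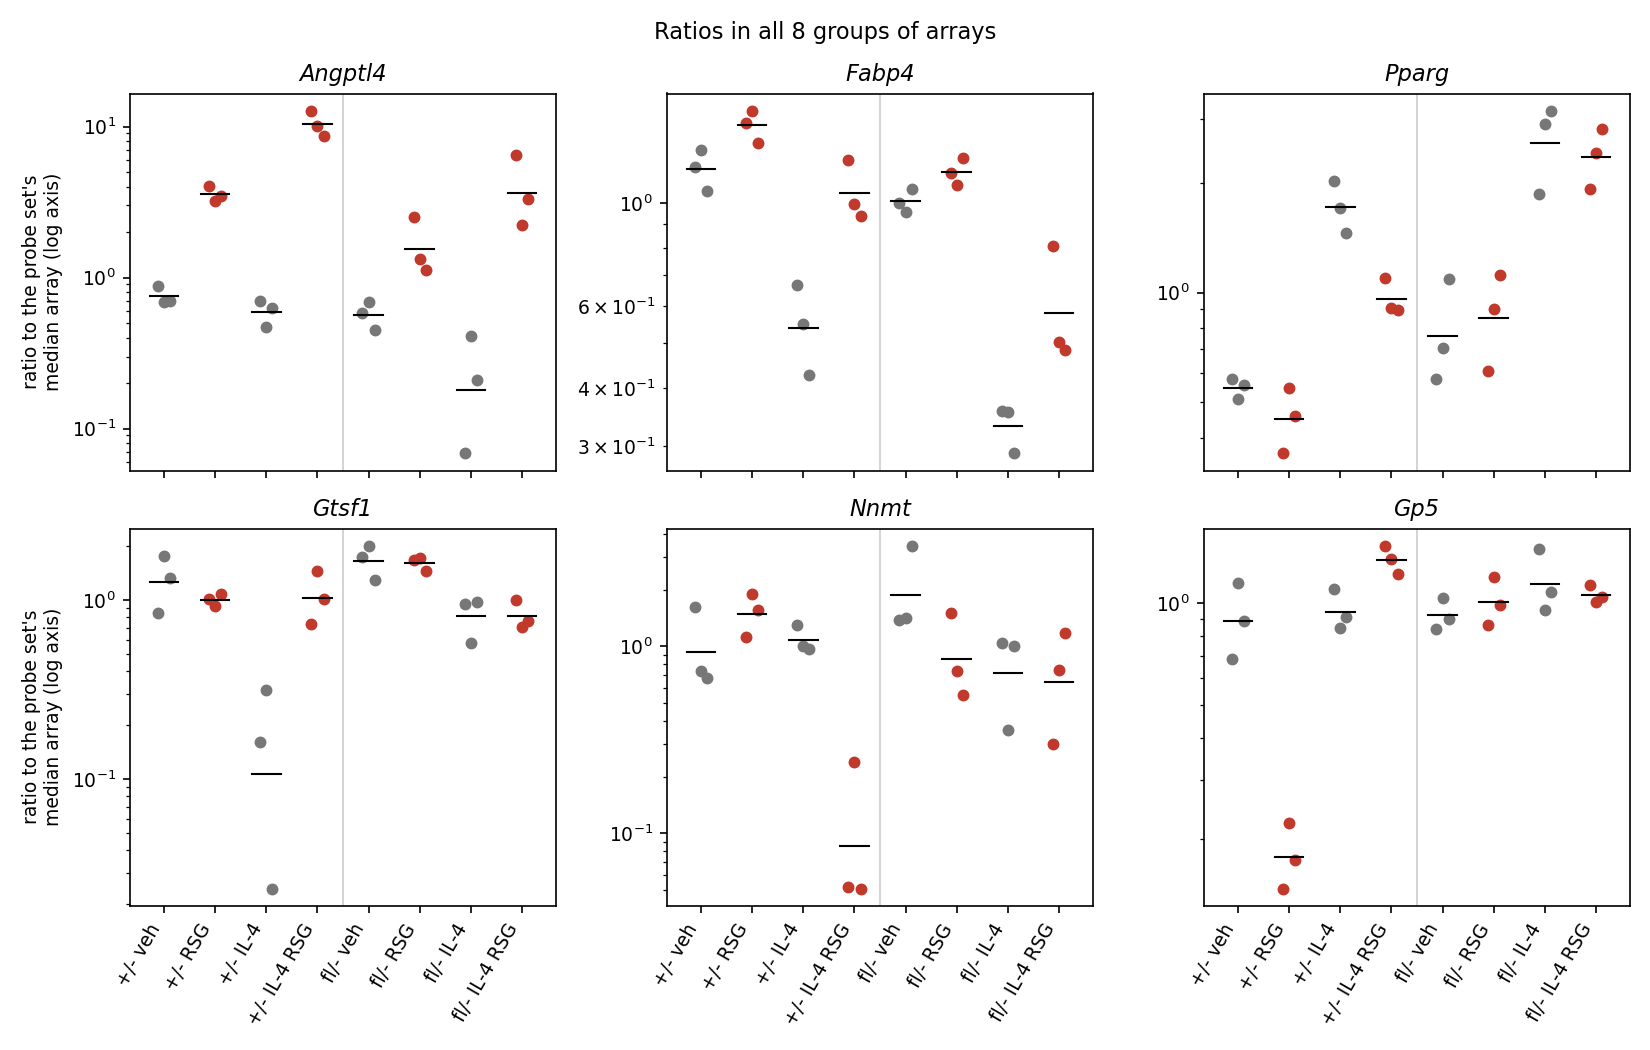
Ratio to the probe set's median array (log axis) of 6 genes in all 8 groups, 3 arrays each, with bars at the mean of the log2 ratios. Grey points are vehicle and red points RSG arrays, +/- and fl/- are the Pparg genotypes; Angptl4 is higher with RSG in all 4 pairs of groups, Nnmt is lowest in Pparg+/- cells with IL-4 and RSG, and Gp5 is lowest in Pparg+/- cells with RSG alone.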

How the data were processed

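Gene expression was measured on 24 Affymetrix arrays of 8 groups, 3 mice each. The authors computed GC-RMA signals in GeneSpring and deposited ratios, each signal divided by its array's median and then by the probe set's median over the arrays. GCOS is named in the submitters' notes as well. A last division by vehicle controls named in the methods is not seen: 82.2% of probe sets have a median within 0.005 of 1, but only 1.97% of values on vehicle arrays. Ratios were floored at 0.01 (14 values on the 6 arrays compared) and log2 transformed. Of 45101 probe sets, 64 controls were removed, and 1688 that reached the array's median ratio on fewer than 3 arrays. limma 3.58.1 in R 4.3.3 was fitted to all 24 arrays with a mean-variance trend and 1 mean per group, and 5 contrasts were adjusted over all 43349 probe sets. The script was tested on simulated data. The number of arrays limits the precision.

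Symbols came from the platform annotation, updated to RefSeq by identifier for 34741 probe sets: 34945 have 1 symbol, 932 several and 9160 none. In the 27 gene lists the probe set of smallest residual SD stands for a gene. Genes were named if the study names them, if among the 15 largest rises or falls that were called without overlap, or if among up to 4 called members of a list. Another gene that the rules name is not reported here, though it counts in the totals. Members and lists were chosen with earlier results of these data known.

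Mouse numbers, read from the array titles, pair the arrays, since each number occurs once in each of its conditions. Deviations of same-numbered arrays from their group means correlated at 0.044, 0.005 and 0.019 for mice 1, 2 and 3, against -0.03 to 0.011 for different mice. Alternatives were mouse as a block, median centring, quantile normalization, a floor of 0.05, no filter, no trend, a 2-fold threshold, the compared arrays alone, the methods' t-test, and leaving out each array or mouse.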

Additional observations from a re-analysis of the deposited data

Results flagged for a closer look

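Gp5 differed in its response to RSG between the 2 activation states of Pparg+/- macrophages by the direct test, with a log2 difference of 2.84 (adjusted p = 0.005). Without IL-4 it read 0.685, 1.15 and 0.888 with vehicle and 0.143, 0.224 and 0.173 with RSG, a log2 change of -2.33, and with IL-4 1.10, 0.843 and 0.914 and 1.48, 1.36 and 1.22, a log2 change of 0.51. With mouse as a block the adjusted p of the difference was 0.066. In Pparg fl/- cells it read 0.841, 1.04 and 0.899 with vehicle and 0.863, 1.20 and 0.990 with RSG without IL-4, so that the 3 low arrays were those of Pparg+/- cells with RSG alone.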

How the results depend on the processing

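The count of 75 called probe sets stayed within 1.5 times under mouse as a block (112), median centring (102), quantile normalization (106), a floor of 0.05 (74), no filter (77) and no trend (89, 72 of them shared). It was 48 at a 2-fold threshold, 24 higher and 24 lower, and 3 from the compared arrays alone, 2 higher and 1 lower. The methods' t-test called 0 after Benjamini-Hochberg adjustment, in either direction, and 1508 at 1.5-fold without it, 750 higher and 758 lower. The 37 falls became 64 with the replicate block, 56 with centring and 59 with quantile normalization. Leaving out 1 array or mouse gave 0 to 67 in all, 0 to 46 higher and 0 to 35 lower. Of 35 named called probe sets, 35 were kept under centring, quantile normalization, the changed floor, no filter and no trend, 34 with the block, 31 at 2-fold, 13 to 26 without 1 array and 0 to 2 without 1 mouse. None changed sign, which in the fits without an array or a mouse follows from groups that do not overlap.

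The 5 calls without IL-4 became 8 with the block, 8 with quantile normalization, 2 with the floor of 0.05, 0 from the compared arrays alone and 0 to 4 with 1 array or mouse left out. The difference between activation states (1 call) gave 0 with the block, 3 without the trend, 0 from the compared arrays and 0 to 2 with arrays or mice left out. The 4 calls in Pparg fl/- cells became 7 without the trend, 0 from the compared arrays and 1 to 11, and the genotype difference (0) became 1 without the trend and 0 to 2. With the block, 1 inflammatory, 1 nuclear receptor and 1 fusion gene were called lower (Ccl3, Pparg and Dcstamp), and with any probe set of a gene 2 of the lipid uptake list were called higher. Paired deviations were weakly correlated, and among the probe sets picked by the naming rule the block changed the calls of Pparg and Rasgrp3 with IL-4, of Aspa without it, of Gp5 in the difference between the states and of Slco2b1 in Pparg fl/- cells. The cause of these shifts was not tested.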
